A study of Mus musculus with 12 samples.

Results

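Basophil progenitors (BaPs) and pre-basophils of mouse bone marrow were compared by RNA sequencing, 3 libraries of each. Of the 32227 genes in the deposited count table, 15083 passed the expression filter and were tested, and all of them are members of the comparison described here. BaPs were sorted as CD34+ cells of the basophil lineage, and pre-basophils, which the sample titles call immature basophils, as CD34- cells with high CLEC12A and low CD9. All libraries came from bone marrow of wild-type C57BL/6J mice with no treatment. The age of the animals was not given in the sources used here. Each library was made from cells pooled from several animals, so a p-value below measures the spread between pools and not between mice. A further 6 libraries of CD34- mature basophils from bone marrow and spleen, 3 of each, entered the model to help estimate that spread. They also entered the expression filter and the scaling, and their means are given for some genes. With them left out, 375 of 13017 genes passed the test in place of 1068 of 15083.

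In the stepwise model, basophils arise in the bone marrow by way of granulocyte-monocyte progenitors, and the BaP is a progenitor committed to the basophil lineage. Single-cell studies cited in the paper tie the basophil path more closely to red cells and megakaryocytes than to neutrophils or monocytes. CD34 and c-Kit mark early haematopoietic progenitors and are lost as cells mature. Basophils carry the high-affinity IgE receptor, grow in response to IL-3, store histamine and proteases in granules, and on stimulation secrete IL-4, IL-13 and chemokines.

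Library depth in the 6 libraries ran from 3596108 to 8006769 counts, and 3 counts, the limit that a count of 0 allows, corresponded to 0.290 to 0.839 CPM (a count scaled to the depth of its library). Such limits cover counting error only. The share of mitochondrial counts was 1.53 to 1.82% in 5 libraries and 3.53% in BaP replicate 3. In the distance between libraries (root mean square difference in log2 CPM over genes), BaP replicates 1 and 2 were 0.488 apart and the pre-basophil libraries 0.464 to 0.493 apart. BaP replicate 3 was 0.918 and 0.879 from the other two, farther than those were from any pre-basophil library.

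BaP replicate 3 carried RNA of other blood cells. In this library 208 genes at 10 CPM or more were at least 5-fold above both other BaP libraries, against 0 genes for BaP replicate 1 or 2 measured the same way. The adult globin gene Hbb-bs read 0.956, 0.943 and 983 CPM in BaP replicates 1, 2 and 3, the T cell receptor subunit gene Cd3e 0, 0.236 and 31.2 CPM, and the NK cell receptor gene Ncr1 0, 0.471 and 94.3 CPM. In pre-basophils Hbb-bs read 13.1, 20.9 and 17.1 CPM, above BaP replicates 1 and 2. It passed the test downward without BaP replicate 3 (adjusted p = 0.0164). Cd3e and Ncr1 read at most 0.640 and 2.08 CPM in pre-basophils. Other red cell and lymphocyte genes stood out in the same way: Il2rb, which encodes an interleukin-2 receptor chain, read 0.956, 0.943 and 249 CPM. Some basophil genes were lower in this library than in the other two. The basophil protease gene Mcpt8 read 11980, 10618 and 5008 CPM in the BaP libraries against 12340, 10887 and 12449 CPM in pre-basophils, and it did not pass the test (adjusted p = 0.390). In bulk samples, fewer cells of a type and less RNA per cell cannot be told apart.

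Summed over whole marker lists, NK cell markers read 450, 350 and 3251 CPM in BaP replicates 1, 2 and 3 against 217 to 272 CPM in pre-basophils. Erythroid markers read 174, 168 and 2659 CPM against 159 to 190 CPM, T cell markers 280, 233 and 1308 CPM against 347 to 376 CPM, and B cell markers 49.4, 48.3 and 404 CPM against 50.3 to 76.4 CPM. In BaP replicates 1 and 2 the T and B cell sums lay below the pre-basophil range, the erythroid sums inside it and the NK cell sums above it. Nkg7 made up most of those NK cell sums, at 428 and 326 CPM in BaP replicates 1 and 2. In pre-basophils Nkg7 read 219, 190.1 and 203 CPM. Over the 20 NK cell markers tested, the median log2 fold change without BaP replicate 3 was −1.29. Macrophage markers were above the pre-basophil range of 26.4 to 29.0 CPM in all 3 BaP libraries, at 56.6, 35.6 and 83.9 CPM. Of the 11 macrophage markers tested, 3 passed the test upward with and without BaP replicate 3 (27.3% against 2.29% over all genes tested), and 0 downward. They were the complement genes C1qa, C1qb and C1qc. C1qa read 7.41, 2.83 and 6.78 CPM in BaPs and 0.559, 0.730 and 0.480 CPM in pre-basophils (log2 fold change 3.27, SE 0.47, adjusted p = 0.00144, and 3.10 without BaP replicate 3). C1qb lost its call without pre-basophil replicate 2 or 3 (adjusted p of 0.0644 and 0.0764), and C1qc without pre-basophil replicate 1 or 2 (0.0764 and 0.0780). The part of other cells in the differences given below was not tested. Genes are therefore called only where they passed with and without that library, and the log2 fold change without it stands beside the first for the genes described in full.

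**Figure D1:**
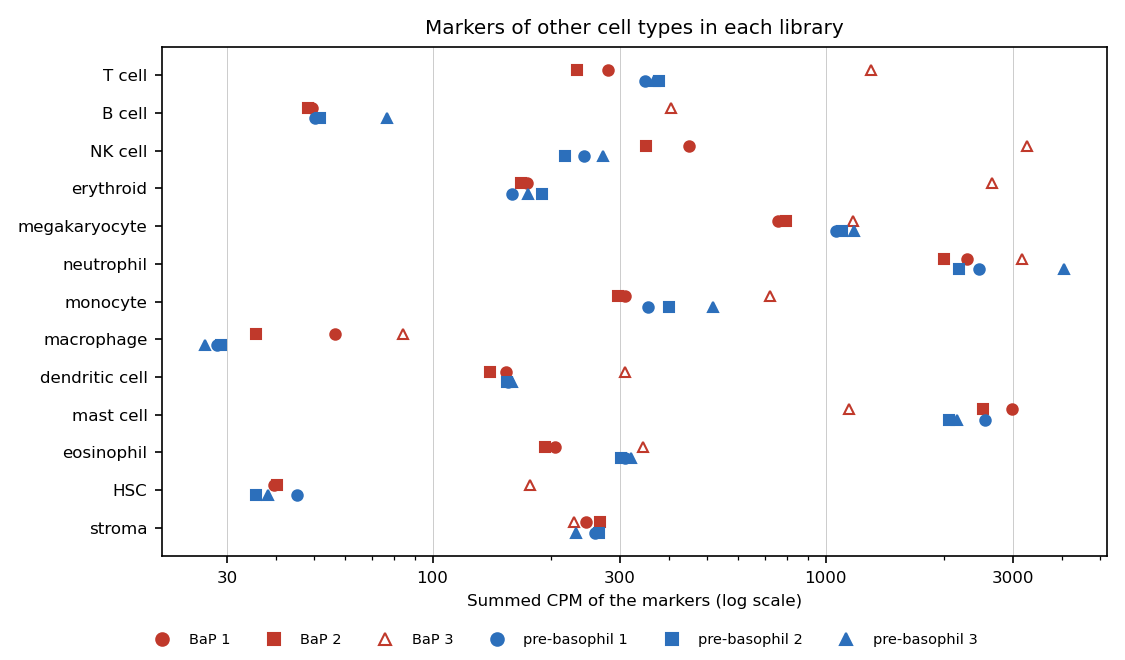
Summed CPM of marker genes of 13 other cell types in each BaP and pre-basophil library, on a logarithmic axis. BaP replicate 3 (open triangles) lies apart from BaP replicates 1 and 2 for T cell, B cell, NK cell and erythroid markers, at 1308, 404, 3251 and 2659 CPM.

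With all libraries, 1068 of 15083 genes passed the test at an adjusted p below 0.05 (7.08%), 421 higher in BaPs (2.79%) and 647 lower (4.29%). The direction of the counts depended on the scaling. With library size as the only scaling factor the median log2 fold change over all genes moved from 0.02 to 0.23, and 1620 genes passed, 1290 higher and 330 lower, so that 79.6% of calls were higher in place of 39.4%. Without BaP replicate 3, 1831 of 14723 genes passed (12.4%), 879 higher (5.97%) and 952 lower (6.47%). In both fits and in the same direction 922 genes passed (6.11%), 346 higher in BaPs (2.29%) and 576 lower (3.82%), and these are the genes called below. Both fits share 11 libraries, so the second is no independent support. Leaving out 1 pre-basophil library brought the 1068 calls to 471, 390 and 382 for replicates 1, 2 and 3. Losses of this kind are given beside the genes named. Beside list counts made without BaP replicate 3, the shares over all genes are the 5.97% and 6.47% above. Beside list counts made with the replicate numbers as a block, 1399 of all 15083 genes passed, 571 higher and 828 lower. Without BaP replicate 1, 1120 of 16367 genes passed, 517 higher and 603 lower. Without BaP replicate 2, 1196 of 16362 passed, 578 higher and 618 lower.

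Most differences were modest. Of the 922 genes called, 257 differed by 2-fold or more, 127 higher and 130 lower. The median log2 fold change was 0.85 over the genes called higher and −0.75 over those called lower. In 918 of the 922 the 3 BaP libraries lay on one side of the 3 pre-basophil libraries, which over all genes tested held for 3780 (25.1%). The 922 genes were chosen by tests on these same libraries. Their separation is therefore no further support, here or where it is given for single genes.

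**Figure D2:**
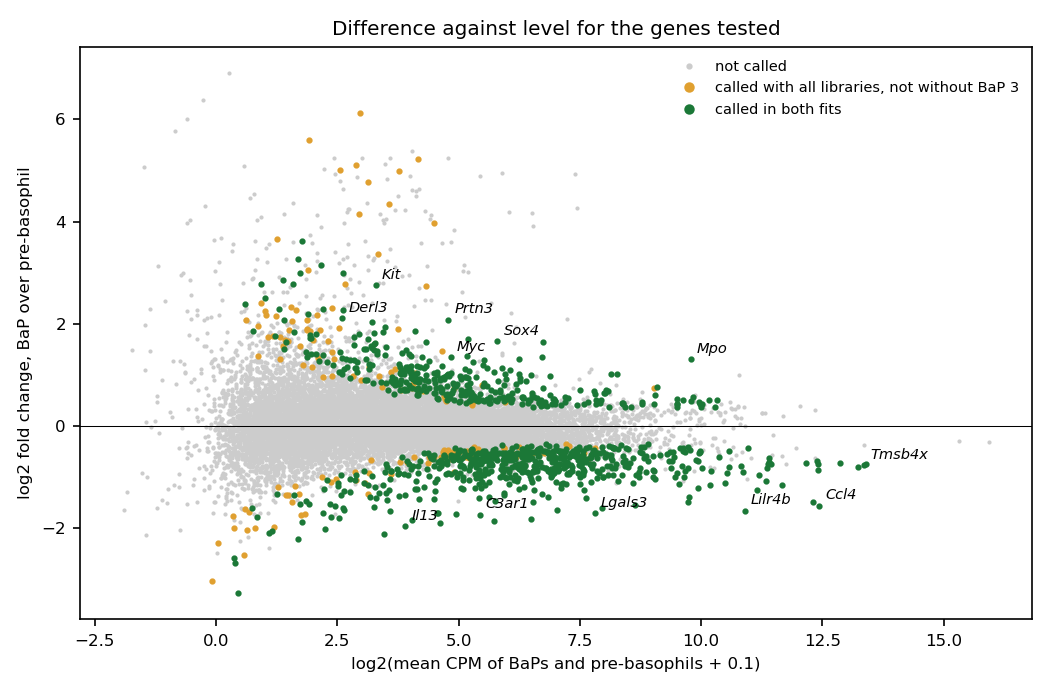
Log2 fold change (BaP over pre-basophil) against the log2 mean CPM of both groups for the genes tested. Green points are the 922 genes called with and without BaP replicate 3, and orange points the 146 genes called only when that library was included.

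The sort used CD34, CD9, CLEC12A, CD200R3 and c-Kit, so their genes are set beside the labels and are no finding. The paper also gated basophils by CD49b and FcεRIα, whose genes Itga2 and Fcer1a are given with their lists. Cd34 read 21, 24.5 and 35.6 CPM in BaP replicates 1 to 3 and 11.2, 12.4 and 8.80 CPM in pre-basophil replicates 1 to 3, and all values in the rest of the text follow this order. The BaP libraries lay above the pre-basophil libraries. Kit, the gene of c-Kit, read 11.5, 7.07 and 31.8 CPM against 3.35, 2.92 and 1.60 CPM, highest in BaP replicate 3. Cd9 was lower in every BaP library (244, 239 and 188 CPM against 444, 400.2 and 453 CPM), as was Cd200r3 (542, 584 and 294 CPM against 946, 982 and 906 CPM). Clec12a overlapped between the groups because of BaP replicate 3, at 322, 327 and 129 CPM against 249.9, 213 and 243 CPM. It did not pass the test with all libraries (adjusted p = 0.818). Without BaP replicate 3 it passed upward (log2 fold change 0.47, adjusted p = 0.0164). Cd34 therefore followed the labels, and Clec12a was present in both groups. The paper describes BaPs, too, as c-Kit-negative, CD200R3-positive and low in CD9. The labels thus do not predict the differences in Kit, Cd9 and Cd200r3, whose origin was not tested.

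Of the genes named by the largest differences, those higher in BaPs were sparse and those lower in BaPs included abundant transcripts. With a floor of 10 CPM on the mean of BaP replicates 1 and 2, the 10 largest higher were Derl3, Prtn3, Pdia5, Tmem176b, Slc25a4, Gmpr, Ung, Nme4, Eng and Ifrd2, with log2 fold changes from 2.12 down to 1.70. Ung, which removes uracil from DNA, read 12.7, 15.8 and 15.4 CPM against 4.47, 4.87 and 3.20 CPM (log2 fold change 1.82, SE 0.26, adjusted p = 0.00115, and 1.80 without BaP replicate 3). Eng, the TGF-beta co-receptor endoglin, read 11.5, 9.90 and 11.4 CPM against 3.07, 4.63 and 2.24 CPM. Nme4, a mitochondrial nucleoside diphosphate kinase, spread widely within BaPs, at 17.9, 10.4 and 7.17 CPM, yet stayed above the 5.59, 2.43 and 2.24 CPM of pre-basophils. Ung and Prtn3 kept their calls without any 1 library. Derl3 and Ifrd2 lost the call without pre-basophil replicate 3 (adjusted p of 0.0594 and 0.0565). The others lost it without at least 2 of the libraries: the highest adjusted p was 0.0735 for Eng, 0.105 for Pdia5, 0.112 for Slc25a4, 0.120 for Gmpr, 0.144 for Tmem176b and 0.153 for Nme4.

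The 10 largest lower in BaPs were Il13, C5ar1, Kcnj2, Muc20, Adora2b, C3ar1, L1cam, Lgals3, Pdzd4 and Lilr4b, with log2 fold changes from −1.96 to −1.66. Lgals3, which encodes the galactoside-binding lectin galectin-3, read 102, 115 and 99.3 CPM in BaPs and 334, 368 and 324 CPM in pre-basophils (log2 fold change −1.70, SE 0.11, adjusted p = 4e-06, and −1.65 without BaP replicate 3). The adhesion molecule gene L1cam read 13.9, 12.3 and 16.6 CPM against 40.2, 54.3 and 48.1 CPM (log2 fold change −1.72, SE 0.15, and −1.86 without BaP replicate 3), and Pdzd4, which encodes a PDZ domain protein, 11.9, 11.1 and 10.5 CPM against 31.0, 35.8 and 40.8 CPM (−1.70, SE 0.15, and −1.64 without BaP replicate 3). In these 3 genes the gap between the groups exceeded the spread within either. Of the 10, Il13 alone lost its call without a single library, as given with the cytokines.

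**Figure D3:**
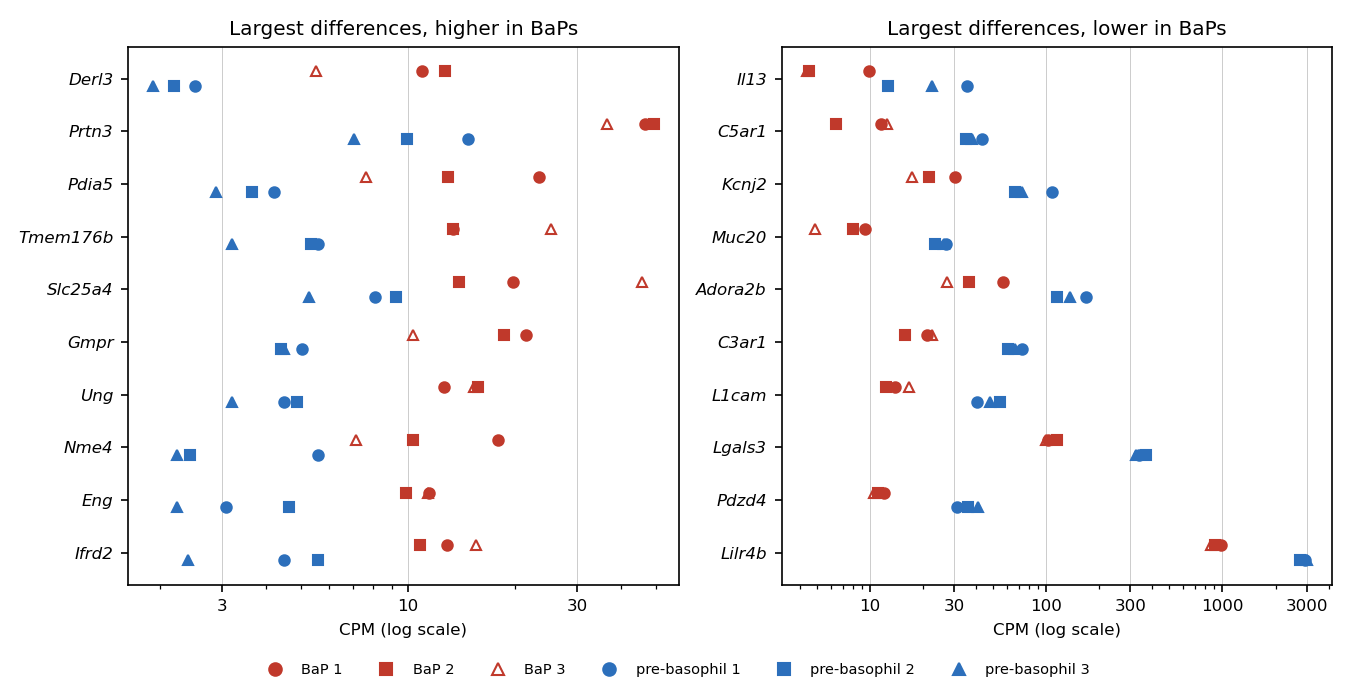
CPM in each library, on a logarithmic axis, for the 10 genes with the largest difference in each direction among those called in both fits. The BaP and pre-basophil libraries do not overlap for any of the 20 genes, which the naming rule required.

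Genes of stem and progenitor cells were the first group described. Of 29 tested members, 7 were called higher in BaPs and 0 lower, 24.1% against 2.29% over all genes. The 7 were Cd34, Kit, Myb, Hoxa9, Sox4, Myc and Cdk6. The share of 24.1% counts Cd34 and Kit, sort markers whose calls are no finding. Sox4, a transcription factor of immature blood cells, read 81.7, 84.6 and 88.1 CPM in BaPs and 25.2, 18.3 and 36.1 CPM in pre-basophils (log2 fold change 1.66, SE 0.20, adjusted p = 0.000472, and 1.63 without BaP replicate 3). The BaP values lay within 10 CPM of each other and more than 45 CPM above any pre-basophil library. Myc, a driver of growth and ribosome production, read 34.4, 44.6 and 44.1 CPM against 15.7, 15.1 and 17.4 CPM (log2 fold change 1.35, SE 0.19, adjusted p = 0.00120, and 1.29 without BaP replicate 3). Cdk6, a kinase of the G1 phase, read 409, 422 and 297 CPM against 192, 196 and 170.0 CPM (log2 fold change 1.02, SE 0.13, adjusted p = 0.000745, and 1.17 without BaP replicate 3). Hoxa9, a progenitor homeobox gene, was sparse at 5.02, 5.66 and 8.13 CPM against 2.52, 1.46 and 1.60 CPM and lost its call without any 1 pre-basophil library (highest adjusted p = 0.138). Kit lost its call without pre-basophil replicate 3 (adjusted p = 0.0532). The group's count of calls was 9 both with all libraries and without BaP replicate 3, 5 without pre-basophil replicate 2 and 4 without replicate 3. Its median log2 fold change was 0.71, and 0.37 without BaP replicate 3, in which haematopoietic stem cell markers summed to 177 CPM against 39.4 and 40.3 CPM in the other BaPs.

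Sox4 and Cdk6 had their lowest means in mature basophils, and Myc did not. Sox4 averaged 84.8 ± 3.21 CPM in BaPs (SD, n = 3), 26.5 ± 9.02 in pre-basophils, 7.36 ± 0.864 in bone marrow mature basophils and 6.90 ± 1.40 in spleen mature basophils. The last pair do not differ beyond their spread. Myc averaged 41.0 ± 5.73, 16.1 ± 1.22, 18.2 ± 4.64 and 57.5 ± 9.27 CPM in the same order. Its means in pre-basophils and bone marrow mature basophils do not differ beyond their spread.

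Transcription factors of the basophil lineage mostly did not pass the test. Of 22 tested, 1 was called higher (4.55% against 2.29%) and 4 lower (18.2% against 3.82%). Gata2, which basophils need to develop, read 1443, 1459 and 757 CPM in BaPs and 1868, 1942 and 1890.3 CPM in pre-basophils (adjusted p = 0.0661, and 0.0331 without BaP replicate 3), and Cebpa 229.6, 277 and 122 CPM against 259, 324 and 268 CPM (adjusted p = 0.284). Nfil3, a basic leucine zipper factor, was called lower at 39.9, 36.8 and 46.4 CPM against 91.4, 69.1 and 109 CPM (log2 fold change −1.13, SE 0.23, adjusted p = 0.0126, and −1.23 without BaP replicate 3). It lost the call without pre-basophil replicate 3 (adjusted p = 0.0700). Spi1, Id1 and Mafg were also called lower, with log2 fold changes of −0.61, −0.78 and −0.73, and each lost the call without at least 2 of the pre-basophil libraries (adjusted p up to 0.161, 0.128 and 0.0966). Mitf, a mast cell factor, was called higher at 4.30, 2.83 and 3.29 CPM against 0.280, 1.70 and 0.960 CPM (adjusted p = 0.0414) and lost the call without any 1 library other than BaP replicate 3 (adjusted p up to 0.157). With BaP replicates 1 and 2 only, 1 passed higher and 7 lower. The group's 6 calls with all libraries were 2, 1 and 0 without pre-basophil replicates 1, 2 and 3. Its median log2 fold change of −0.18 turned positive when library size was the only scaling factor.

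Primary granule genes encode serine proteases and a peroxidase that myeloid cells make at the promyelocyte stage. Of 12 tested, 4 were called higher (Prtn3, Elane, Mpo and Nkg7) and 0 lower, 33.3% against 2.29% over all genes, and 8 passed upward without BaP replicate 3. Prtn3 (proteinase 3) read 46.6, 49.3 and 36.5 CPM in BaPs and 14.8, 9.98 and 7.04 CPM in pre-basophils (log2 fold change 2.08, SE 0.26, adjusted p = 0.000638, and 2.23 without BaP replicate 3). Elane (neutrophil elastase) read 10.3, 12.7 and 8.81 CPM against 5.03, 3.16 and 2.56 CPM (log2 fold change 1.58, SE 0.32, adjusted p = 0.00984, and 1.73 without BaP replicate 3). In both genes every BaP library exceeded every pre-basophil library. The Elane call was lost without pre-basophil replicate 2 or 3 (adjusted p of 0.0616 and 0.0700). Mpo, myeloperoxidase, read 1792, 1402 and 562 CPM against 623, 441 and 459 CPM, so that BaP replicate 3 fell inside the pre-basophil range. Its log2 fold change was 1.30 (SE 0.37, adjusted p = 0.0495) with all libraries and 1.66 (adjusted p = 0.000219) without BaP replicate 3, and its call was lost without any other single library (adjusted p from 0.0873 to 0.182) and with DESeq2, limma-voom or robust edgeR. Nkg7, which encodes a granule membrane protein and is also an NK cell marker, read 428, 326 and 485 CPM against 219, 190.1 and 203 CPM (log2 fold change 1.02, SE 0.16, adjusted p = 0.00254, and 0.90 without BaP replicate 3). The group's 4 calls were 2 without pre-basophil replicate 2 or 3. Markers of neutrophils, which share these enzymes, summed to 2295, 2000 and 3156 CPM in BaPs and to 2461, 2185 and 4044 CPM in pre-basophils, with overlapping ranges.

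Prtn3 and Elane are neighbours on mouse chromosome 10, 3072 bases apart on the same strand (GRCm38, GENCODE M21: Prtn3 at chr10:79874476-79883174 and Elane at chr10:79886247-79888215). Their promoter windows, shown because the neighbouring genes differed in the same direction, are the bases before the annotated start in the RefSeq promoter table (GRCm38.p6), in transcript direction. Capitals mark a match to any of 5 motifs searched on both strands: AGATAA for GATA factors, TGACTCA for AP-1, TATAAA for the TATA box, GGGCGG for the GC box and CCAAT for the CCAAT box. The Prtn3 window, chr10:79879417-79879613 on the plus strand, lies in an intron of a longer annotated transcript and before the start of a shorter one, and held no match.
Prtn3: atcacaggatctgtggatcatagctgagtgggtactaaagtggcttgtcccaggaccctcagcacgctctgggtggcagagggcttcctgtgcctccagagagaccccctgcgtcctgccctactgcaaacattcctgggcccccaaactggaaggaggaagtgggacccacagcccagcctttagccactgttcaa
Elane: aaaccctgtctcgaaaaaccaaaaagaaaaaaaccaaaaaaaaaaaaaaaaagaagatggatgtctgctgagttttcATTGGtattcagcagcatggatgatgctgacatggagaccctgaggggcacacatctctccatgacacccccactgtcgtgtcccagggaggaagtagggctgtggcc
The Elane window, chr10:79886062-79886246 on the plus strand, held 1 CCAAT match on the reverse strand at position 78 from its 5′ end. That motif was present in 33.8% of all 32851 windows of the table.

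Of 6 genes of basophil and mast cell proteases tested, 0 were called higher and 2 lower (33.3% against 3.82%), the granzyme genes Gzmb and Gzmc. In the fit that left out BaP replicate 3, 1 passed higher and 2 lower. Gzmb read 396, 418 and 235 CPM against 766, 656 and 726 CPM (log2 fold change −1.04, SE 0.26, adjusted p = 0.0323, and −0.81 without BaP replicate 3), and Gzmc 40.1, 32.5 and 15 CPM against 70.4, 55.7 and 64.1 CPM (−1.15, SE 0.27, and −0.79 without BaP replicate 3). Both lost the call without any 1 pre-basophil library (adjusted p up to 0.111 and 0.0900). The basophil protease gene Prss34 overlapped between the groups in BaP replicates 1 and 2. It read 48653, 45396 and 17009 CPM against 49584, 42584 and 43264 CPM (adjusted p = 0.614).

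Of 26 cytokine and chemokine genes tested, 13 were called lower in BaPs and 0 higher, 50% against 3.82% over all genes: Il4, Il13, Il6, Tnf, Csf1, Osm, Hgf, Ccl3, Ccl4, Ccl6, Ccl9, Cxcl2 and Flt3l. The median log2 fold change was −0.94, and −0.77 both without BaP replicate 3 and with library size as the only scaling factor. The count was 14 without BaP replicate 3, and 7 with pre-basophil replicate 1 or 3 left out. Ccl4, the chemokine MIP-1β, read 2617, 3107 and 2677 CPM in BaPs and 7686, 8741 and 8344 CPM in pre-basophils (log2 fold change −1.56, SE 0.13, adjusted p = 3.05e-05, and −1.52 without BaP replicate 3). Ccl3, MIP-1α, read 2738, 3088 and 2165 CPM against 7039.8, 8146 and 7347 CPM (log2 fold change −1.50, SE 0.15, adjusted p = 9.72e-05, and −1.36 without BaP replicate 3). Ccl9, a ligand of CCR1, read 446, 558 and 432 CPM against 1232, 1243 and 1285 CPM (log2 fold change −1.39, SE 0.12, adjusted p = 4.48e-05, and −1.31 without BaP replicate 3). For all 3 chemokines every BaP library lay far below the lowest pre-basophil library, and the calls held without any 1 library. Osm, an IL-6 family cytokine, read 576, 706 and 506 CPM against 1272, 1531 and 1315 CPM (log2 fold change −1.20, SE 0.18, adjusted p = 0.00178, and −1.09 without BaP replicate 3). The type 2 cytokine gene Il13 was low and variable, at 9.79, 4.48 and 4.36 CPM against 35.5, 12.7 and 22.4 CPM (log2 fold change −1.96, SE 0.46, adjusted p = 0.0235, and −1.70 without BaP replicate 3), and lost its call without BaP replicate 2 (adjusted p = 0.0513), pre-basophil replicate 1 (0.108) or pre-basophil replicate 3 (0.0711).

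The 4 chemokine genes lie in one cluster on chromosome 11: Ccl9 at chr11:83572919-83578636, Ccl6 at chr11:83587882-83593087, Ccl3 at chr11:83647844-83649355 and Ccl4 at chr11:83662584-83664683. Ccl4 lies on the plus strand and the others on the minus strand. Ccl9 and Ccl6 are 9245 bases apart, and Ccl3 and Ccl4 are 13228 bases apart. Ccl6, chosen after its values were seen, read 128, 142 and 332 CPM against 559, 595 and 622 CPM (log2 fold change −1.55, SE 0.27, adjusted p = 0.00427, and −2.13 without BaP replicate 3). Promoter windows of 3 of these neighbours are shown because they were lower together, with capitals as above.
Ccl3: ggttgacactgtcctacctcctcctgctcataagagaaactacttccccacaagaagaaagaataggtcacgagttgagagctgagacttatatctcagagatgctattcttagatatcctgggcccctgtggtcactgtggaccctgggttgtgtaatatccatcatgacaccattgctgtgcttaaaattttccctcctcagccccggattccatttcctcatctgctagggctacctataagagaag
Ccl6: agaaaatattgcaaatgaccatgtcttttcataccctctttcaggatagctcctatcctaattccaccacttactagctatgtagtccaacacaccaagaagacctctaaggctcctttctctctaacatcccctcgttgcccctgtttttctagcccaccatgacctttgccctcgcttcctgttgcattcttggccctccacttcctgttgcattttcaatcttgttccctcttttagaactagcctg
Ccl9: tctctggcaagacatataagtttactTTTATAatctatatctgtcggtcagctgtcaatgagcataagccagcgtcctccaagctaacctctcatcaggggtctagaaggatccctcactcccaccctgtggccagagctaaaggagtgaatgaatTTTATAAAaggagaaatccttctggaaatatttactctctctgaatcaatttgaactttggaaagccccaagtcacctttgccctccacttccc
The windows are chr11:83649379-83649628, chr11:83593088-83593337 and chr11:83578637-83578886, minus strand, printed in transcript direction. The Ccl9 window held TATAAA at position 159 and its reverse complement at positions 27 and 157, while the Ccl3 and Ccl6 windows held no match. TATAAA was present in 12.4% of all windows.

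The chemokine means were highest in mature basophils. Ccl3 averaged 2664 ± 466 CPM in BaPs (SD, n = 3), 7511 ± 571 in pre-basophils, 18379 ± 1843 in bone marrow mature basophils and 12264 ± 946 in spleen mature basophils. Ccl4 averaged 2801 ± 267, 8257 ± 533, 22110.1 ± 2209 and 16908 ± 1536 CPM. Prtn3 ran the other way, at 44.1 ± 6.73, 10.6 ± 3.93, 1.57 ± 0.825 and 0.914 ± 0.179 CPM, as did Mpo at 1252 ± 628, 508 ± 100.2, 47.1 ± 21.6 and 13.9 ± 2.44 CPM. Comparisons between these groups share the pre-basophil libraries, so the values are only set side by side.

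**Figure D4:**
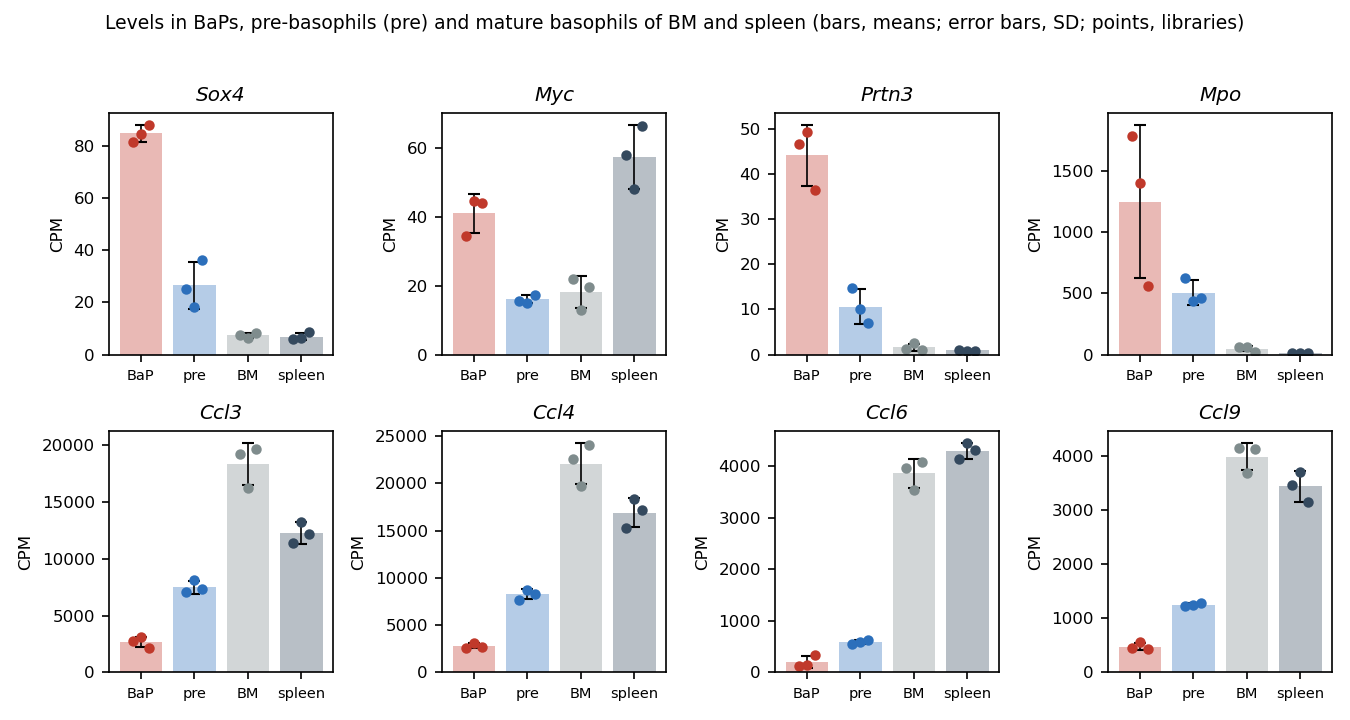
CPM of 8 genes in the 4 groups (bars, means; error bars, SD; points, the 3 libraries of each group). Mean Prtn3 and Mpo were highest in BaPs, at 44.1 and 1252 CPM, and mean Ccl3 and Ccl4 lowest there, at 2664 and 2801 CPM.

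Mediator synthesis genes split. Of 16 tested, 1 was called higher (6.25% against 2.29%) and 4 lower (25% against 3.82%). Hdc, the enzyme that makes histamine, read 1018, 647 and 495 CPM in BaPs and 1904, 1130.0 and 1740.0 CPM in pre-basophils (log2 fold change −1.15, SE 0.28, adjusted p = 0.0284, and −0.93 without BaP replicate 3). It lost the call without BaP replicate 2 (adjusted p = 0.0622), pre-basophil replicate 1 (0.116) or pre-basophil replicate 3 (0.103). Alox15, an arachidonate lipoxygenase, read 134, 152 and 108 CPM against 245, 245 and 255 CPM (log2 fold change −0.92, SE 0.13, adjusted p = 0.00115, and −0.79 without BaP replicate 3). Ptgs2, the inducible cyclooxygenase, read 250.1, 206 and 149.99 CPM against 494, 362 and 418 CPM (log2 fold change −1.07, SE 0.21, adjusted p = 0.00905, and 0.0537 without pre-basophil replicate 1, and −0.89 without BaP replicate 3). Alox5ap, needed for leukotriene synthesis, was also called lower (log2 fold change −0.88) and lost the call without any 1 pre-basophil library (adjusted p up to 0.0642). Tbxas1, thromboxane synthase, went up in BaPs, at 27.5, 26.9 and 29.0 CPM against 14, 11 and 12.3 CPM (log2 fold change 1.17, SE 0.19, adjusted p = 0.00309, and 1.14 without BaP replicate 3). Without BaP replicate 3, 3 passed higher and 4 lower. The group's 5 calls were 2 without pre-basophil replicate 1 and 3 without replicate 3.

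Among 34 genes of the IgE receptor and its proximal signalling, 7 were called lower and 0 higher, 20.6% against 3.82%, among them Fcer1g, Lat2, Btk, Tec, Gab2 and Pik3cg. The receptor α-chain gene Fcer1a read 1423, 1291 and 537 CPM in BaPs and 1696, 1544 and 1483 CPM in pre-basophils, with a log2 fold change of −0.54 that did not pass the test (adjusted p = 0.214). Gab2, an adaptor of the receptor, read 88.4, 99.0 and 73.8 CPM against 159, 167 and 166 CPM (log2 fold change −0.92, SE 0.12, adjusted p = 0.000929, and −0.80 without BaP replicate 3), and Btk, a Tec family kinase, 52.6, 48.6 and 42.4 CPM against 76.0, 73.8 and 74.4 CPM (−0.65, SE 0.11, and −0.55 without BaP replicate 3). The count was 11 without BaP replicate 1 or 3, 10 without BaP replicate 2 and 5 without any 1 pre-basophil library. The group's median log2 fold change was −0.27, and −0.35 without BaP replicate 3.

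Receptors for cytokines were called lower in 6 of 37 cases and higher in 0 (16.2% against 3.82%): Csf2rb, Csf2rb2, Il1rl1, Il18r1, Il18rap and Ifnar2. Csf2rb and Csf2rb2 both encode signalling chains of the IL-3 receptor and are near copies, so the share of reads given to each is uncertain. Csf2rb read 408, 381 and 249 CPM in BaPs and 694, 669 and 699 CPM in pre-basophils (log2 fold change −0.99, SE 0.15, adjusted p = 0.00178, and −0.79 without BaP replicate 3), and Csf2rb2 129, 127 and 83.9 CPM against 254, 236 and 253 CPM (−1.14, SE 0.14, and −0.95 without BaP replicate 3). The IL-18 receptor gene Il18rap was tight within both groups, at 324, 335 and 311 CPM against 605, 602 and 605 CPM (log2 fold change −0.90, SE 0.09, adjusted p = 0.000144, and −0.86 without BaP replicate 3). Its partner Il18r1 read 61.9, 60.8 and 121 CPM against 149.5, 155 and 169 CPM (log2 fold change −0.94, and −1.35 without BaP replicate 3), and lost its call without pre-basophil replicate 2 or 3 (adjusted p of 0.0575 and 0.0732). Il1rl1, the IL-33 receptor, had a log2 fold change of −0.68 and lost its call without BaP replicate 2 or any 1 pre-basophil library (adjusted p up to 0.179). The IL-3 receptor gene Il3ra did not pass (209, 203 and 104 CPM against 255, 255 and 285 CPM, adjusted p = 0.0934). With BaP replicates 1 and 2 only, 8 passed lower. The group's 6 calls were 3 without pre-basophil replicate 2 or 3, and its median log2 fold change was 0.05 with all libraries and −0.34 without BaP replicate 3.

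Receptors for complement and other innate stimuli were called lower in 5 of 18 cases, and in 0 higher (27.8% against 3.82%): C3ar1, C5ar1, Myd88, Itgam and Itgb2. C3ar1, the receptor of the anaphylatoxin C3a, read 21, 15.8 and 22.4 CPM in BaPs and 72.4, 60.9 and 66.0 CPM in pre-basophils (log2 fold change −1.74, SE 0.14, adjusted p = 1.73e-05, and −1.84 without BaP replicate 3). C5ar1, the receptor of C5a, read 11.5, 6.37 and 12.5 CPM against 43.3, 35.1 and 38.1 CPM (log2 fold change −1.90, SE 0.29, adjusted p = 0.00178, and −2.11 without BaP replicate 3). In both genes each BaP library was below each pre-basophil library by more than 20 CPM. Myd88, the Toll-like receptor adaptor, had a log2 fold change of −0.59 and lost its call without BaP replicate 1 or any 1 pre-basophil library (adjusted p up to 0.152). In the fit that left out BaP replicate 3, 6 of the group passed lower.
The promoter window of C3ar1 (gene at chr6:122847138-122856161, minus strand; window at chr6:122856162-122856407) is shown because, of the 20 genes with the largest differences, this window held an AP-1 match.
C3ar1: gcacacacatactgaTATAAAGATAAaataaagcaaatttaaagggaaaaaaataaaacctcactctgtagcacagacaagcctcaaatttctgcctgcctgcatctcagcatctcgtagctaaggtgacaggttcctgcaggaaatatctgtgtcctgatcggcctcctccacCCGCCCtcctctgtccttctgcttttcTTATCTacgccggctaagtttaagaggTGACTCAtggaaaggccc
It held AGATAA at position 21, overlapping TATAAA at position 16, the reverse complement of AGATAA at 202, that of GGGCGG at 175 and TGACTCA at 229. TGACTCA was present in 4.46% of all windows and AGATAA in 9.99%. Among the 10 largest genes higher in BaPs, 0 windows held AGATAA and 0 TATAAA, and among the 10 largest lower 3 held each. CCAAT was found in 2 and 6 windows, and GGGCGG, present in 32.7% of all windows, in 5 and 6.

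Ion channel and calcium entry genes were called lower in 7 of 36 cases (19.4% against 3.82%). The plasma membrane calcium pump gene Atp2b4 alone was called higher (2.78% against 2.29%, near the background). The 7 were Kcnj2, Orai1, Orai2, Trpm4, P2rx1, Itpr3 and Atp2a3. Kcnj2, an inward rectifier potassium channel, read 30.3, 21.7 and 17.3 CPM in BaPs and 108, 66.5 and 72.9 CPM in pre-basophils (log2 fold change −1.85, SE 0.21, adjusted p = 0.000274, and −1.65 without BaP replicate 3). Trpm4, a calcium-activated cation channel, read 26.5, 39.4 and 20 CPM against 60.7, 51.1 and 69.2 CPM (log2 fold change −1.10, SE 0.21, adjusted p = 0.00763, and −0.87 without BaP replicate 3). P2rx1, an ATP-gated channel, had a log2 fold change of −0.74 and lost its call without pre-basophil replicate 1 or 3 (adjusted p of 0.0543 and 0.0653). Without BaP replicate 3, 1 passed higher and 10 lower. Trpm4 lost its call when only the 6 libraries compared were fitted. The group's 8 calls were 3, 4 and 3 without pre-basophil replicates 1, 2 and 3.

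G protein-coupled receptors of leukocytes were called lower in 8 of 45 cases and higher in 0 (17.8% against 3.82%): Cxcr2, Ccr1, Ptger3, Adora2b, Hrh4, S1pr4, Gpr34 and Hcar2. Adora2b, an adenosine receptor, read 56.6, 36.3 and 27.3 CPM in BaPs and 169, 116 and 136 CPM in pre-basophils (log2 fold change −1.82, SE 0.25, adjusted p = 0.000980, and −1.58 without BaP replicate 3). Cxcr2, a chemokine receptor, read 26.0, 33.2 and 34.9 CPM against 58.4, 76.9 and 66.4 CPM (log2 fold change −1.09, SE 0.16, adjusted p = 0.00135, and −1.17 without BaP replicate 3). Hrh4, the histamine H4 receptor, was sparse at 3.82, 6.60 and 4.45 CPM against 14.5, 12.9 and 11.2 CPM (log2 fold change −1.38, SE 0.22, adjusted p = 0.00292, and −1.27 without BaP replicate 3). S1pr4 had a log2 fold change of −0.66 and lost its call without pre-basophil replicate 2 or 3 (adjusted p of 0.110 and 0.0665). The group's 9 calls with all libraries were 17 without BaP replicate 1 and 12 without BaP replicate 3. In the fit without BaP replicate 1, which keeps BaP replicate 3, T and NK cell marker calls also rose, from 2 to 13 and from 4 to 19. The part of lymphocyte RNA in the 17 was not tested. The 9 calls were 4, 4 and 3 with pre-basophil replicate 1, 2 or 3 left out.

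Adhesion receptors and receptors of the paired immunoglobulin-like families followed. Of 19 integrin genes 5 were called lower (26.3% against 3.82%), Itga1, Itga2, Itgam, Itgb2 and Itgb7, and 1 higher, Itga4 (5.26% against 2.29%). With BaP replicates 1 and 2 only, 8 passed lower and 1 higher. Itgb7 read 161, 184 and 161 CPM in BaPs and 331, 335 and 344 CPM in pre-basophils (log2 fold change −0.997, SE 0.11, adjusted p = 0.000274, and −0.96 without BaP replicate 3), and Itgb2, the β2 chain, 205, 216 and 197 CPM against 371, 386 and 334 CPM (−0.82, SE 0.11, and −0.78 without BaP replicate 3). Itga2 encodes CD49b, by which the paper also gated basophils, so its call, counted in the 26.3%, is no finding. Itga2 read 32.5, 42.0 and 63.1 CPM against 83.3, 97.6 and 72.9 CPM, highest among BaPs in replicate 3. Its log2 fold change was −0.86 (adjusted p = 0.0316) with all libraries and −1.17 (adjusted p = 0.000410) without BaP replicate 3, and it lost its call without any other single library (adjusted p up to 0.130).

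Of 32 paired and inhibitory receptor genes, 7 were called lower and 0 higher (21.9% against 3.82%), and 10 lower and 2 higher passed without BaP replicate 3. The 7 were the sort marker Cd200r3, Cd200r4, Lilrb4a, Lilr4b, Treml2, Cd244a and Tyrobp. The share of 21.9% counts Cd200r3, whose call is no finding. Lilr4b, related to the inhibitory receptor gene Lilrb4a, read 983, 911 and 864 CPM in BaPs and 2932, 2751 and 3017 CPM in pre-basophils (log2 fold change −1.66, SE 0.13, adjusted p = 1.73e-05, and −1.61 without BaP replicate 3). Lilrb4a read 493, 450.3 and 405 CPM against 1276, 1211 and 1269 CPM (log2 fold change −1.48, SE 0.12, and −1.40 without BaP replicate 3). They are near copies, and reads could be split between them. Cd244a, a receptor for CD48, read 56.4, 71.4 and 67.7 CPM against 112, 128 and 122 CPM (log2 fold change −0.89, SE 0.12, adjusted p = 0.000745, and −0.91 without BaP replicate 3). Of 18 tetraspanin genes 3 were called lower (16.7% against 3.82%), the sort marker Cd9, Cd53 and Cd82. That share counts Cd9, whose call is no finding. In the fit that left out BaP replicate 3, 3 passed lower and 2 higher, and with the replicate numbers as a block 6 passed, 1 higher and 5 lower. Cd53 and Cd82 had log2 fold changes of −0.57 and −0.39 and lost their calls without BaP replicate 2 or any 1 pre-basophil library (adjusted p up to 0.137 and 0.143), and Cd82 also without BaP replicate 1. The tetraspanin median log2 fold change was −0.01, and turned to 0.21 when library size was the only scaling factor.

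Immediate-early and feedback genes are induced rapidly and briefly in stimulated cells. Of 53 tested, 22 were called lower in BaPs (41.5% against 3.82%) and 1 higher, Myc (1.89% against 2.29%, near the background). Zfp36, which encodes a protein that destabilises cytokine mRNA, read 1729.7, 2251 and 2127 CPM in BaPs and 4052, 4628 and 4827 CPM in pre-basophils (log2 fold change −1.15, SE 0.14, adjusted p = 0.000453, and −1.17 without BaP replicate 3). Nfkbiz, a nuclear regulator of NF-κB, read 1449, 1478 and 963 CPM against 2356, 2565 and 2370.4 CPM (log2 fold change −0.91, SE 0.16, adjusted p = 0.00536, and −0.72 without BaP replicate 3). Ppp1r15a, a stress-induced phosphatase subunit, read 619, 597 and 505 CPM against 949.8, 985 and 1016 CPM (log2 fold change −0.78, SE 0.13, adjusted p = 0.00292, and −0.69 without BaP replicate 3). The groups did not overlap in these 3 genes, and their calls held without any 1 library. Fosb, an AP-1 subunit and among the most abundant genes called, read 8702, 7451 and 5004 CPM against 13579.9, 10371 and 13114 CPM (log2 fold change −0.81, SE 0.23, adjusted p = 0.0475, and −0.61 without BaP replicate 3) and lost its call without BaP replicate 2 or any 1 pre-basophil library (adjusted p up to 0.157). The AP-1 subunit gene Fos did not pass (2077, 2929 and 1811 CPM against 2600.3, 3619.9 and 3918 CPM, adjusted p = 0.170). Without BaP replicate 3, 29 passed lower and 1 higher. The group's 23 calls were 14, 10 and 9 without pre-basophil replicates 1, 2 and 3. Its median log2 fold change was −0.54, and −0.33 with library size as the only scaling factor.

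Of 61 nucleolar and ribosome biogenesis genes tested, 20 were called higher in BaPs and 0 lower, 32.8% against 2.29% over all genes. In 49 of the 61 all BaP libraries lay above all pre-basophil libraries, which held for 12.1% of all genes tested. The median log2 fold change was 0.68, and 0.59 without BaP replicate 3. Fbl, fibrillarin, the methyltransferase of box C/D particles, read 70.2, 58.7 and 83.9 CPM in BaPs and 36.6, 29.7 and 36.8 CPM in pre-basophils (log2 fold change 1.05, SE 0.15, adjusted p = 0.00131, and 0.91 without BaP replicate 3). Its partner Nop58 read 69.8, 64.6 and 82.2 CPM against 42.5, 39.7 and 36.1 CPM (log2 fold change 0.88, SE 0.13, adjusted p = 0.00182, and 0.78 without BaP replicate 3). Dkc1, which encodes the pseudouridine synthase dyskerin, read 49.2, 35.4 and 44.3 CPM against 22.6, 21.4 and 21.7 CPM (log2 fold change 0.97, SE 0.15, and 0.96 without BaP replicate 3), and Nolc1, a nucleolar phosphoprotein, 48.5, 38.7 and 56.5 CPM against 25.2, 19.5 and 22.5 CPM (1.11, SE 0.18, and 0.97 without BaP replicate 3). The count was 21 both with all libraries and without BaP replicate 3. It was 10 and 12 with pre-basophil replicate 2 or 3 left out.

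Chaperones of the cytosol and the endoplasmic reticulum differed in how much they depended on BaP replicate 3. Of 18 heat-shock chaperone genes, 5 were called higher and 0 lower (27.8% against 2.29%). Hspa9, the mitochondrial HSP70, read 79.8, 78.3 and 88.8 CPM in BaPs and 48.6, 39.4 and 43.2 CPM in pre-basophils (log2 fold change 0.91, SE 0.12, adjusted p = 0.000981, and 0.86 without BaP replicate 3). Bag3, Stip1, Hsp90ab1 and Hspa4 had log2 fold changes of 1.12, 0.57, 0.57 and 0.37, and each lost its call without any 1 pre-basophil library or without BaP replicate 1 or 2 (adjusted p up to 0.105, 0.110, 0.175 and 0.171), except that Hsp90ab1 and Stip1 kept it without BaP replicate 2 and Bag3 without BaP replicate 1. The chaperone count of 6 with all libraries was 5 without BaP replicate 3, 2 without BaP replicate 1 and 1 without any 1 pre-basophil library.

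Of 34 genes of the unfolded protein response and folding in the endoplasmic reticulum, 1 was called higher (2.94% against 2.29%, near the background) and 0 lower. Upward calls numbered 24 without BaP replicate 3, where 5.97% of all genes passed upward, and 8 with the replicate numbers as a block. The median log2 fold change was 0.40 with all libraries and 0.63 without BaP replicate 3. Hspa5, which encodes the chaperone BiP and was chosen after its values were seen, read 6926, 4970.4 and 2429 CPM in BaPs and 4672, 2876 and 3353 CPM in pre-basophils, a range that overlapped (adjusted p = 0.439, and 0.00790 without BaP replicate 3). Pdia6, a disulfide isomerase, read 416, 356 and 200.2 CPM against 211, 181 and 206 CPM (log2 fold change 0.70, SE 0.20, adjusted p = 0.0475, and 1.92e-05 without BaP replicate 3) and lost its call without any other single library (adjusted p up to 0.185). Derl3 and Pdia5, both of the endoplasmic reticulum and named above for their size, were lowest in BaP replicate 3 too: Derl3 read 11, 12.7 and 5.52 CPM against 2.52, 2.19 and 1.92 CPM, and Pdia5 23.4, 13 and 7.65 CPM against 4.19, 3.65 and 2.88 CPM.

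Of 43 S phase genes, 5 were called higher and 0 lower (11.6% against 2.29%), and 24 passed upward without BaP replicate 3. The 5 were Ung, given above, Cdc6, Hells, Dtl and Mcm7. Cdc6, which loads the replicative helicase, read 16.2, 17.0 and 13.7 CPM in BaPs and 9.22, 7.55 and 8.64 CPM in pre-basophils (log2 fold change 0.88, SE 0.21, adjusted p = 0.0228, and 0.98 without BaP replicate 3). Mcm7, a subunit of that helicase, read 76.0, 72.8 and 65.1 CPM against 53.4, 44.5 and 54.4 CPM (log2 fold change 0.49, SE 0.13, adjusted p = 0.0331, and 0.56 without BaP replicate 3). Apart from Ung, each lost its call without at least 3 of the libraries (highest adjusted p of 0.109 for Cdc6, 0.114 for Hells, 0.138 for Dtl and 0.162 for Mcm7). The 5 calls were 2 without BaP replicate 1, 3 without BaP replicate 2 or pre-basophil replicate 1, and 1 without pre-basophil replicate 2 or 3, and with the replicate numbers as a block 8 passed.

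Of 54 G2 and M phase genes, 1 was called higher, Cbx5, and 2 lower, Lbr and Ccnb2, close to the background in both directions (1.85% against 2.29%, and 3.70% against 3.82%). With the replicate block 5 passed, 1 higher and 4 lower. The proliferation marker Mki67 read 804, 638 and 431 CPM in BaPs and 797, 644 and 681 CPM in pre-basophils, and did not pass the test (adjusted p = 0.732). Lbr, the lamin B receptor, read 236, 244 and 203 CPM against 336, 331 and 338 CPM (log2 fold change −0.56, SE 0.11, adjusted p = 0.00929, and −0.47 without BaP replicate 3). Cbx5 and Ccnb2 lost their calls without at least 4 of the libraries (adjusted p up to 0.179 and 0.160). The median log2 fold change of −0.14 turned positive without BaP replicate 3 (0.04) and with library size as the only scaling factor.

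Of 19 G1 cyclins, kinases and inhibitors, 4 were called higher (Ccnd2, Cdk4, Cdk6 and Cdc25a; 21.1% against 2.29%) and 2 lower (Cdkn2d and E2f2; 10.5% against 3.82%). With BaP replicates 1 and 2 only, 6 passed higher and 3 lower. Cdk4, the partner of D-type cyclins, read 172, 137 and 118 CPM in BaPs and 92.5, 93.7 and 92.8 CPM in pre-basophils (log2 fold change 0.61, SE 0.14, adjusted p = 0.0184, and 0.74 without BaP replicate 3) and lost its call without BaP replicate 1 or any 1 pre-basophil library (adjusted p up to 0.0767). Cdkn2d, a CDK4 and CDK6 inhibitor, read 75.2, 65.5 and 55.8 CPM against 98.9, 89.6 and 97.4 CPM (log2 fold change −0.55, SE 0.13, adjusted p = 0.0228, and −0.43 without BaP replicate 3) and lost its call without any 1 pre-basophil library (adjusted p up to 0.0953). E2f2 read 68.1, 65.5 and 47.5 CPM against 89.7, 109 and 102 CPM (log2 fold change −0.74, SE 0.14, adjusted p = 0.00824, and −0.58 without BaP replicate 3). The group's 6 calls were 3, 2 and 2 without pre-basophil replicates 1, 2 and 3. Bcl2, which protects cells from apoptosis, was the only called member of 14 BCL2 family genes (7.14% against 2.29%). It read 77.6, 95.7 and 150.1 CPM against 36.6, 53.1 and 42.1 CPM (log2 fold change 1.30, SE 0.22, adjusted p = 0.00360, and 0.99 without BaP replicate 3).

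Genes of vesicle release were called lower in 4 of 39 cases, Sytl3, Unc13d, Lyst and Stx7, and higher in 0 (10.3% against 3.82%). Sytl3, a Rab27 effector, read 63.1, 70.5 and 114 CPM in BaPs and 163, 193 and 222 CPM in pre-basophils (log2 fold change −1.22, SE 0.20, adjusted p = 0.00340, and −1.52 without BaP replicate 3). Unc13d, needed for cytotoxic granule release, read 154, 158 and 118 CPM against 209, 209.6 and 201 CPM (log2 fold change −0.53, SE 0.13, and −0.40 without BaP replicate 3). Unc13d, Lyst and Stx7 lost their calls without any 1 pre-basophil library (adjusted p up to 0.0931, 0.0963 and 0.145), and Lyst and Stx7 also without BaP replicate 1 or 2. The 5 calls with all libraries were 3 without BaP replicate 1, 8 without BaP replicate 3 (1 higher and 7 lower) and 1 without any 1 pre-basophil library, and the median log2 fold change of −0.17 turned positive with library size as the only scaling factor.

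Metabolic and antigen presentation lists held few calls. Of 23 glycolysis genes, 4 were called lower and 0 higher (17.4% against 3.82%). Hk3, a hexokinase, read 116, 114 and 83.4 CPM in BaPs and 169.7, 191 and 193 CPM in pre-basophils (log2 fold change −0.83, SE 0.15, adjusted p = 0.00617, and −0.67 without BaP replicate 3). The glucose and lactate transporter genes Slc2a3 and Slc16a3 and Ldha had log2 fold changes of −0.89, −0.80 and −0.59. Slc2a3 lost its call without pre-basophil replicate 1 or 3 (adjusted p of 0.0572 and 0.0891), Slc16a3 without replicate 1 (0.0607) and Ldha without any 1 of the 3 (up to 0.145). In the fit that left out BaP replicate 3, 2 passed higher and 4 lower. The 4 calls were 1 without pre-basophil replicate 1 and 2 without replicate 3, and the median of −0.10 turned positive with library size as the only scaling factor.

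Of 26 cholesterol synthesis genes, 1 was called higher (3.85% against 2.29%), the sterol sensor gene Insig1, at 16.0, 10.6 and 14.6 CPM against 4.75, 3.41 and 5.92 CPM (log2 fold change 1.53, SE 0.29, adjusted p = 0.00744, and 1.48 without BaP replicate 3). Without BaP replicate 3 the count was 3, and with the replicate block 2. Of 13 MHC class II genes 1 was called higher (7.69% against 2.29%), H2-Aa, at 11.2, 4.48 and 14.3 CPM against 1.40, 0.974 and 3.52 CPM (log2 fold change 2.26, SE 0.51, adjusted p = 0.0178, and 1.84 without BaP replicate 3), and it lost its call without pre-basophil replicate 1 or 2 (adjusted p of 0.0738 and 0.0882). The count was 3 without BaP replicate 2, without BaP replicate 3 (2 higher and 1 lower) and with the replicate block, and 2 without BaP replicate 1. Dendritic cell markers summed to 154, 140 and 308 CPM in BaPs and to 154 to 159 CPM in pre-basophils.

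Of 39 interferon-stimulated genes, 2 were called higher (Bst2 and Ifi47) and 1 lower (Ifitm3), 5.13% and 2.56% against 2.29% and 3.82%. Ifi47 read 20.3, 20.7 and 38.8 CPM against 10.9, 11.2 and 14.4 CPM. All 3 lost their calls without pre-basophil replicate 1 and without either replicate 2 or replicate 3 (adjusted p up to 0.0971). The count of 3 was 5 without BaP replicate 1 and 8 without BaP replicate 3 (2 higher and 6 lower), where the median log2 fold change turned from 0.12 to −0.23, and 0, 1 and 2 with pre-basophil replicate 1, 2 or 3 left out. Of 30 enzymes of DNA methylation and polycomb repression, 1 was called higher (3.33% against 2.29%), Mtf2, and 1 lower (3.33% against 3.82%), Tet2, both shares near the background. Tet2 is a methylcytosine dioxygenase and read 148, 156 and 102 CPM against 204, 211 and 185 CPM (log2 fold change −0.56, SE 0.14, adjusted p = 0.0312, and −0.38 without BaP replicate 3). Tet2 lost its call without any 1 pre-basophil library (adjusted p up to 0.120). Mtf2, at 37.0, 37.7 and 36.5 CPM against 30.7, 25.1 and 24.8 CPM, did not pass with the replicate block (log2 fold change 0.47, adjusted p = 0.0510), and lost its call without any 1 library other than BaP replicate 3 (adjusted p up to 0.188). The 3 calls with all libraries were 5 without BaP replicate 3 (3 higher and 2 lower) and 0 without any 1 pre-basophil library.

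**Figure D5:**
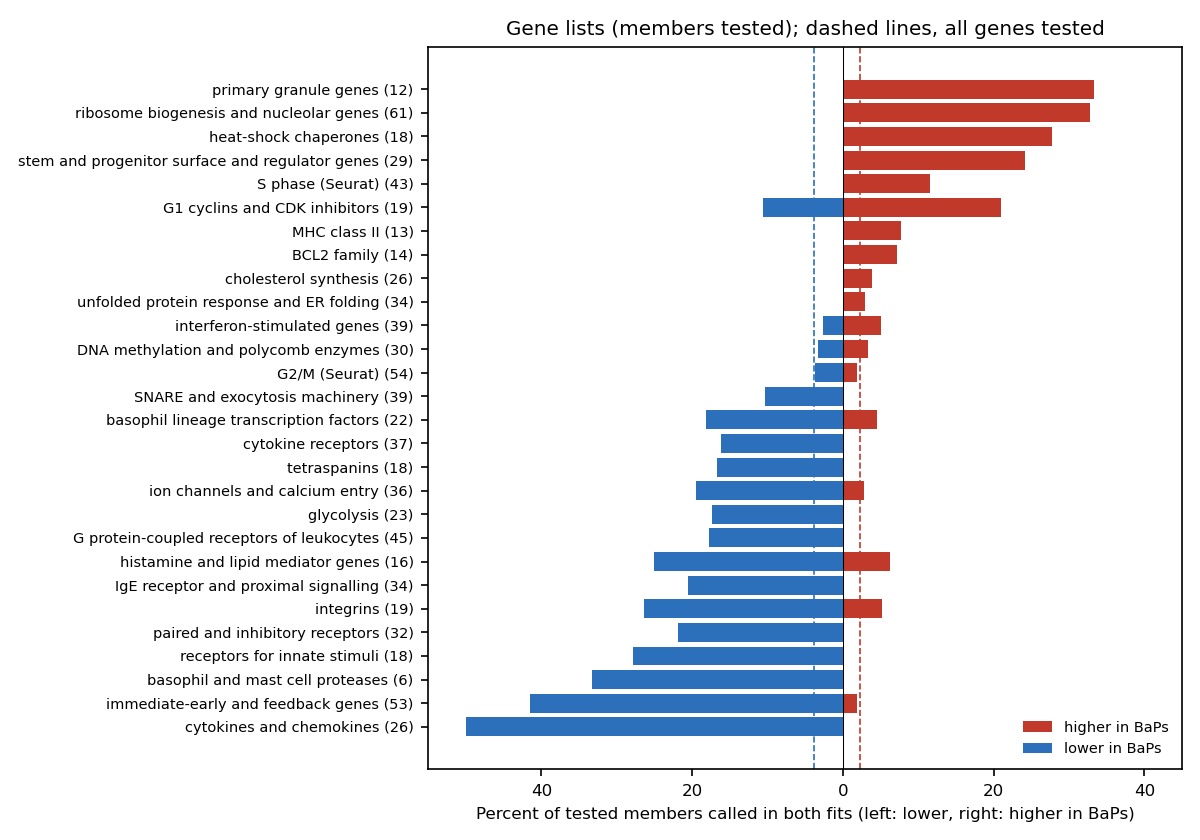
Share of the tested members of each gene list that were called with and without BaP replicate 3, to the right where higher in BaPs and to the left where lower. Dashed lines mark the shares over all genes tested, 2.29% higher and 3.82% lower. Cytokines and chemokines reached 50% lower and primary granule genes 33.3% higher. Sort or gating markers count in their lists: Cd34 and Kit among progenitor genes, Cd9 among tetraspanins, Cd200r3 among paired receptors and Itga2 among integrins.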

How the data were processed

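Sorted cells were lysed, poly(A) RNA was captured on beads, and cDNA was amplified by PCR without molecular identifiers and sequenced. Per the study's methods, the authors trimmed reads with Cutadapt 3.4 and aligned them with Bowtie2 2.4.2 to GRCm38. The submitters' processing notes list GRCm39, so the build is not certain, and no coordinate comes from the count table. The authors deposited raw whole-number counts per gene, with no normalization. Use of strand and treatment of reads shared by similar genes are not stated, so overlapping genes and near copies are uncertain. The authors tested their counts with TCC.

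Counts of all 12 libraries were fitted in edgeR 4.0.16 (R 4.3.3; TMM scaling, filterByExpr, quasi-likelihood F test, contrast BaP minus pre-basophil, Benjamini-Hochberg over all genes tested, threshold 0.05, two-sided), and again without BaP replicate 3. CPM uses TMM-scaled library sizes, with a prior count of 2 for distances. Groups came from the sample titles. No replicate pair was closer than sampling noise allows (chi-square per degree of freedom from 4.16). Same-numbered BaP and pre-basophil libraries deviated together from their group means (correlations over genes of 0.228, 0.125 and 0.262), so a fit with the replicate number as a block was an alternative, beside other scalings (DESeq2 size factors, library size, upper quartile, DEGES), filters, DESeq2 1.42.0, limma 3.58.1 (voom), robust edgeR, a minimum change of 1.5-fold, the 6 libraries alone and each library left out. On counts simulated for this contrast, 50 of 98 genes changed by 1 on the log2 scale and 95 of 99 changed by 2 were called, and 9 of 14534 unchanged genes. The simulation gave all genes and libraries the same dispersion and held no outlying library. These rates therefore do not describe a group that holds BaP replicate 3.

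Members and lists were chosen with earlier results of these data known. Named genes were the sort markers; the 10 largest differences in each direction among genes called in both fits, at a mean of 10 CPM or more in the higher group (for BaPs, the mean of replicates 1 and 2, which Kit and H2-Aa did not reach) and with no overlap between groups; up to 4 called members per list with the smallest adjusted p, and any that a count of 5 or fewer covers; the 5 most abundant called genes; and the 6 genes most raised in BaP replicate 3. Cell cycle lists came from Seurat 5.3.0. Gene positions are from GENCODE M21 (GRCm38), in which 97% of tested symbols matched exactly 1 gene, and promoter windows from a RefSeq table (GRCm38.p6), cut before the first annotated transcript start inside them. One gene that the rule named is not reported here.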

Additional observations from a re-analysis of the deposited data

How the results depend on the processing

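The 1068 calls with all libraries became 1620 with library size as the only scaling factor, 2091 with no filter on low counts (1230 higher and 861 lower, so that 58.8% were higher), 51 when a change beyond 1.5-fold was required and 375 when only the 6 libraries compared were fitted. The 922 calls made in both fits became 46 and 375 under the last pair. With 1 library left out the first count ran from 382 (without pre-basophil replicate 3) to 1831 (without BaP replicate 3), and the second from 282 (without BaP replicate 1) to 463 (without pre-basophil replicate 1). With BaP replicate 1 or 2 out, the second count rests on 1 BaP library whose spread is assumed to equal that of the other groups. The replicate block gave 1399 and 1160 calls, of which 1049 of the first 1068 were shared, and it changed no call of a named gene other than Mtf2. Under DESeq2 size factors, upper quartile and DEGES scaling, a stricter filter, DESeq2, limma and robust edgeR both counts stayed within 1.5 times. With each library left out in turn, the log2 fold change of Clec12a ran from −0.069 (without BaP replicate 2) to 0.47 (without BaP replicate 3), and was also negative without BaP replicate 1. Those of Hba-a1, Hba-a2, Hbb-bs, Hbb-bt, Il2rb and Klrk1 ran from −3.51, −3.02, −4.13, −4.20, −1.58 and −2.47 without BaP replicate 3 up to 4.73, 4.48, 4.85, 4.76, 5.90 and 4.37. Of 133 named genes called with all libraries, 112 lost the call when a change beyond 1.5-fold was required, 46 with the 6 libraries alone (Cd200r3 and Trpm4 among them, which no left-out library ended), 18 with DEGES scaling, 16 with library size alone, 11 with DESeq2 size factors, 4 with no filter (Cd82, Hspa4, Mcm7 and Mtf2), 4 with robust edgeR (Gzmb, Hdc, Mpo and Mtf2), 3 with limma-voom (H2-Aa, Mpo and Pdia6), 2 with DESeq2 (Mpo and Mtf2) and 0 with upper quartile scaling or the stricter filter. The cause of the other shifts was not tested. Of the named genes' values under the alternatives, 2076 kept direction and side of the threshold, 414 lost their call, 21 gained one and 8 changed sign. At these depths, genes under about 1 CPM rest on a few counts per library.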

Other observations

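Lists assembled after the values were seen described further groups, and their counts are values with no support of their own. Of 78 actin cytoskeleton genes, 30 were called lower in BaPs and 0 higher (38.5% against 3.82%), with a median log2 fold change of −0.37, and −0.18 with library size as the only scaling factor. Vcl, the adhesion protein vinculin, read 96.5, 89.1 and 93.8 CPM in BaPs and 207, 199 and 207 CPM in pre-basophils (log2 fold change −1.13, SE 0.11, adjusted p = 9.72e-05, and −1.13 without BaP replicate 3). Myo1d, an unconventional myosin, read 55.2, 50.4 and 39.8 CPM against 143, 144 and 121 CPM (−1.49, SE 0.14, and −1.35 without BaP replicate 3), and Zyx, zyxin, 376, 374 and 357 CPM against 735, 651 and 654 CPM (−0.88, SE 0.10, and −0.85 without BaP replicate 3). All 3 kept their calls without any 1 library. Tmsb4x, which binds actin monomers and is among the most abundant genes called, read 7967, 7877 and 7451 CPM against 12694, 12332 and 14506 CPM. Actb, β-actin, had a log2 fold change of −0.72 and lost its call without BaP replicate 2 or any 1 pre-basophil library (adjusted p of 0.0550 or more). The count of 30 was 14, 11 and 15 without pre-basophil replicates 1, 2 and 3.

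Of 33 tested genes of one-carbon metabolism and nucleotide synthesis, 10 were called higher and 0 lower (30.3% against 2.29%), and 20 passed without BaP replicate 3. Nme2, a nucleoside diphosphate kinase, read 127, 125 and 107 CPM against 61.5, 55.0 and 63.7 CPM (log2 fold change 0.99, SE 0.13, adjusted p = 0.000994, and 1.07 without BaP replicate 3). Mthfd1, a folate enzyme, read 12.2, 13.2 and 16.3 CPM against 6.15, 4.38 and 4.48 CPM (log2 fold change 1.49, SE 0.28, and 1.37 without BaP replicate 3), and Shmt2, the mitochondrial serine hydroxymethyltransferase, 56.6, 39.6 and 44.3 CPM against 23.8, 26.3 and 22.4 CPM (0.96, SE 0.18, and 1.01 without BaP replicate 3). The count was 5 without pre-basophil replicate 2 or 3.

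Of 82 cytosolic ribosomal protein genes, 81 had a log2 fold change above 0, with a median of 0.30, and 19 were called higher (23.2% against 2.29%). Rps2 read 733, 663 and 648 CPM against 444, 394 and 367 CPM (log2 fold change 0.76, SE 0.11, adjusted p = 0.00115, and 0.81 without BaP replicate 3), and Rpl3 845, 847 and 866 CPM against 594, 569 and 601 CPM (0.54, SE 0.09, and 0.53 without BaP replicate 3). These genes have many processed pseudogenes, and reads could be split between copies. The count was 39 without BaP replicate 3, 10 and 5 without BaP replicates 1 and 2, 6, 3 and 4 without pre-basophil replicates 1, 2 and 3, and 30 with the replicate block. Of 14 erythroid markers tested, 1 was called higher (7.14% against 2.29%) and 0 lower. Without BaP replicate 3, 1 passed higher and 4 lower. The gene called was Tfrc, the transferrin receptor, at 22.9, 18.2 and 27.5 CPM against 6.99, 8.28 and 10.4 CPM (log2 fold change 1.41, SE 0.23, adjusted p = 0.00348, and 1.24 without BaP replicate 3).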
